A study of Mus musculus with 4 samples.

Results

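The mitochondrial ribosomal protein genes, named Mrpl for the large subunit and Mrps for the small subunit, were examined in CMT64 cells given TGF-β, TNF-α or both cytokines. The members were the protein-coding rows whose symbol was Mrpl or Mrps followed by a number, with or without a final letter. This rule found 78 genes among 25704, of which 49 were Mrpl and 29 were Mrps. CMT64 is a mouse cell line from a lung carcinoma. The 4 conditions were TGF-β at 5 ng/ml, TGF-β at 5 ng/ml together with TNF-α at 10 ng/ml (costimulation), TNF-α at 10 ng/ml, and a negative control. RNA was taken after 24 h. Each condition had 1 library of 1 cell line, so no value has a replicate error, and a difference between 2 libraries could not be told apart from a difference between 2 cultures.

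Mitochondrial ribosomes translate the few mRNAs that mitochondrial DNA encodes, all of them for subunits of the respiratory chain and the ATP synthase. Their ribosomal RNAs come from mitochondrial DNA, but every one of their proteins is encoded in the nucleus, made in the cytosol and imported. Some of the proteins descend from bacterial ribosomal proteins, while others are found only in mitochondria. Of the 78 members, 46 belong to families with a bacterial counterpart by textbook nomenclature and 32 were not assigned to one. Symbols do not always give the place of the protein: Mrps30 and Mrps18a products sit in the large subunit of the mammalian ribosome, and the product of Mrps36 is better known as a part of the 2-oxoglutarate dehydrogenase complex.

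The libraries held 81245906 mapped reads for TGF-β, 75984151 for costimulation, 77606742 for TNF-α and 75358896 for the control. Smad7, a direct target of TGF-β signalling, was at 32.5 and 35.6 RPKM in the TGF-β and costimulation libraries, against 14.2 and 14.1 RPKM in the TNF-α and control libraries, where RPKM is the read number scaled to exon length and to mapped reads. Nfkbia, a direct target of NF-κB and TNF-α signalling, was at 26.8 and 51.4 RPKM with costimulation and TNF-α, against 12.3 and 18.8 RPKM with TGF-β and in the control. Tnfaip3, also taken as a TNF-α response gene, was at 23.0 and 12.1 RPKM with costimulation and TNF-α. It was at 17.3 RPKM with TGF-β and 5.66 RPKM in the control, so TGF-β alone stood above TNF-α alone. The keratin genes Krt8 and Krt18 were abundant in all 4 libraries, but the epithelial adhesion gene Epcam had only 7 to 16 reads. The 5 epithelial markers summed to 2419 and 2200 RPKM with TGF-β and costimulation, against 3270 and 3860 RPKM with TNF-α and in the control. Krt19 was at 317 and 297 RPKM with TGF-β and costimulation, against 915 and 1057 RPKM with TNF-α and in the control, and Cdh1, the gene of E-cadherin, was at 134 and 121 RPKM, against 253 and 251 RPKM. The part of these shifts in the results on the members was not tested. The endothelial markers summed to at most 0.093 RPKM. The 5 fibroblast markers summed to 9.62 and 11.5 RPKM with TGF-β and costimulation, against 0.425 and 0.45 RPKM with TNF-α and in the control. Nearly all of this was Col1a1, and the defining marker Dcn had 0 or 1 reads in each library.

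The members lie on 17 chromosomes, with 11 on chromosome 11 and 8 on chromosome 17. All 78 members were above 2 RPKM in every library, and 60 of them were above 10 RPKM in every library. The median member was at 21.2 RPKM with TGF-β, 22.6 with costimulation, 21.1 with TNF-α and 22.5 in the control. The members together took 207990 reads in the TGF-β library, 205029 in the costimulation library, 209231 in the TNF-α library and 217943 in the control, and their RPKM values summed to 1742, 1852, 1842 and 2018. As a share of the summed RPKM of all genes the 4 libraries lay closer together, with 0.494% for TGF-β, 0.51% for costimulation, 0.49% for TNF-α and 0.513% for the control. In bulk RNA, fewer expressing cells and less RNA per cell cannot be told apart.

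**Figure D1:**
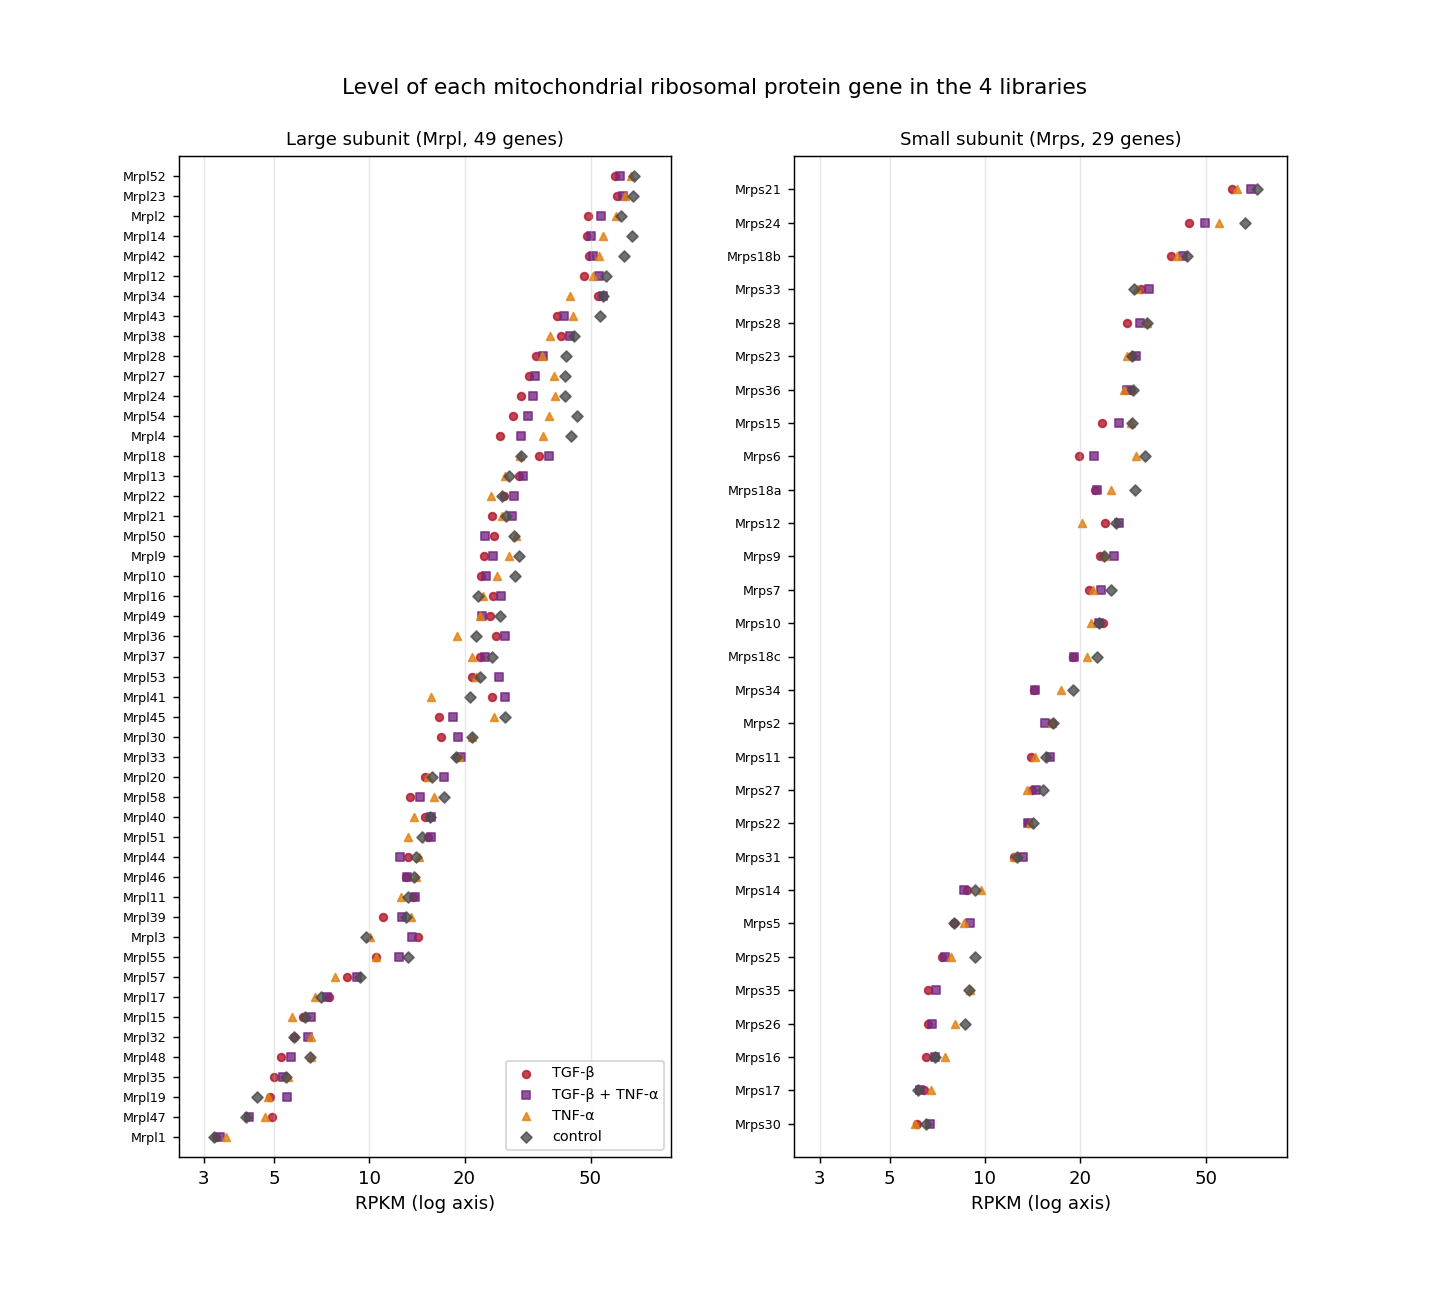
RPKM on a log axis of each of the 49 Mrpl and 29 Mrps genes, 1 symbol per library, ordered by the mean of the 4 libraries. Levels run between 3.22 and 72.4 RPKM, and the 4 symbols of most genes lie close together.

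The highest level belonged to Mrps21, a small-subunit protein with a bacterial counterpart, with 60.3 RPKM in TGF-β, 69.1 in costimulation, 62.5 in TNF-α and 72.4 in control cells. Mrpl52, a mitochondria-specific protein, had 59.8, 61.8, 67.3 and 68.7 RPKM in the same order of libraries. Mrpl23, whose bacterial counterpart sits at the exit of the peptide tunnel, had 60.8, 63.3, 64.1 and 67.9 RPKM. The ranges of these genes over the 4 libraries overlapped, so their order is not fixed by the data. Mrpl2, whose bacterial counterpart is part of the catalytic core of the large subunit, was at 49.04, 53.8, 60.3 and 62.6 RPKM. Mrpl14, which lies at the face between the subunits, was at 48.8, 50.1, 54.6 and 67.6 RPKM, and here the control stood above the other libraries. Mrpl42, a mitochondria-specific protein, showed the same shape with 49.5, 50.9, 53.1 and 63.6 RPKM.

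At the low end, Mrpl1, whose bacterial counterpart forms the stalk beside the tRNA exit site, had 3.28, 3.39, 3.52 and 3.22 RPKM for TGF-β, costimulation, TNF-α and control. Mrpl47, with a bacterial counterpart near the tunnel exit, had 4.92, 4.16, 4.67 and 4.07 RPKM, and Mrpl19, whose bacterial counterpart sits at the subunit interface, had 4.86, 5.49, 4.77 and 4.43 RPKM. Mrpl35 was at 5.00, 5.32, 5.53 and 5.47 RPKM, and Mrpl48 was at 5.25, 5.65, 6.56 and 6.51 RPKM. The ranges of Mrpl47 and Mrpl19 overlapped, as did those of Mrpl35 and Mrpl48, whereas Mrpl1 lay below all others in each library.

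The highest mean RPKM was 19.7 times the lowest. The mean read number spread less, by 5.71 times, with 836 to 6364 reads for any member in any library. Exon length of the members ran between 491 bases for Mrpl52 and 7605 bases for Mrpl17, with a median of 1502.5 bases. Spearman's rho of mean RPKM with exon length was −0.757 over the 78 members, against −0.309 over 9933 genes with RPKM above 2 in any library. Read number had a rho of 0.218 with exon length over the members. These are descriptions across genes, and the points share the same 4 libraries. The exon length divides RPKM, and it counts every annotated exon of a gene, used or not.

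**Figure D2:**
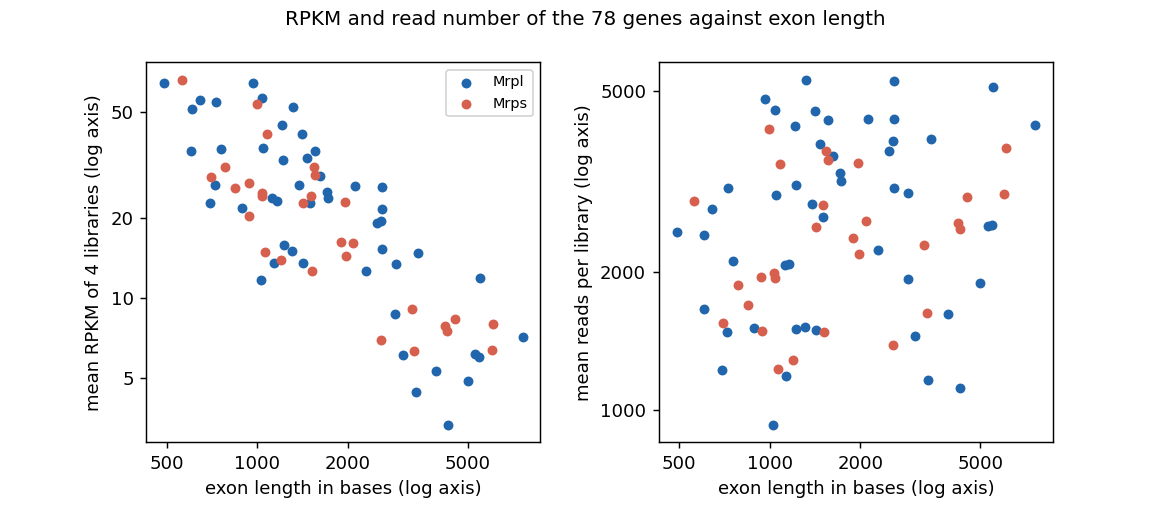
Mean RPKM of the 4 libraries and mean reads per library, both on log axes, against exon length of the 78 genes in bases (blue, Mrpl; red, Mrps). RPKM falls along exon length (rho −0.757) while read number does not (rho 0.218).

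Across the 4 libraries the members varied little. The ratio of the highest to the lowest of a gene's 4 RPKM values had a median of 1.19 for the members and 1.34 for the 9933 genes. It was over 1.5 for 6 members, a count that was not made over all genes. The control held the highest value for 37 members, costimulation for 24, TNF-α for 13 and TGF-β for 4. The lowest value fell in the TGF-β library for 42 members, in the TNF-α library for 23, in the control for 9 and in the costimulation library for 4. Among the 9933 genes, 18.7% were lowest in the TGF-β library and 30.1% were highest in the control.

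The effect of TGF-β was tested with edgeR by setting the TGF-β and costimulation libraries against the TNF-α and control libraries, with TNF-α as an additive term. The 4 libraries leave 1 degree of freedom to this fit, and what it reads as spread is how far the cytokine effects fail to add up, so its p-values do not measure the spread between cultures. All 78 members were among the 13509 genes tested. At an adjusted p under 0.05, 11 members were lower with TGF-β and 2 were higher, against 19.9% and 18.6% of all genes tested. The 13 calls were 16.7% of the members, against 38.4% called in either direction among all genes, and 22 of 78 had an unadjusted p under 0.05, against 45.1% of all genes. The members' median log2 fold change was −0.11, against 0.01 for all genes, and 62 of 78 members were below 0, against 49.3% of all genes. With offsets for GC content and length the members' median was −0.07, against 0.00 for all genes. By rank alone, 35 members had both libraries with TGF-β below both libraries without it, against 31.2% of the 9933 genes. The opposite arrangement held for 13 members, against 43.0% of the genes.

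The Mrpl and Mrps genes, split by symbol alone, gave similar medians. Of the 49 Mrpl genes 6 were lower and 2 higher, with a median of −0.11, and of the 29 Mrps genes 5 were lower and 0 higher, with a median of −0.12. Among the Mrps genes 27 of 29 were below 0. Genes assigned to a bacterial counterpart had 6 lower and 1 higher of 46, with a median of −0.10. The other members had 5 lower and 1 higher of 32, with a median of −0.14. Neither pair of groups was tested against each other.

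**Figure D3:**
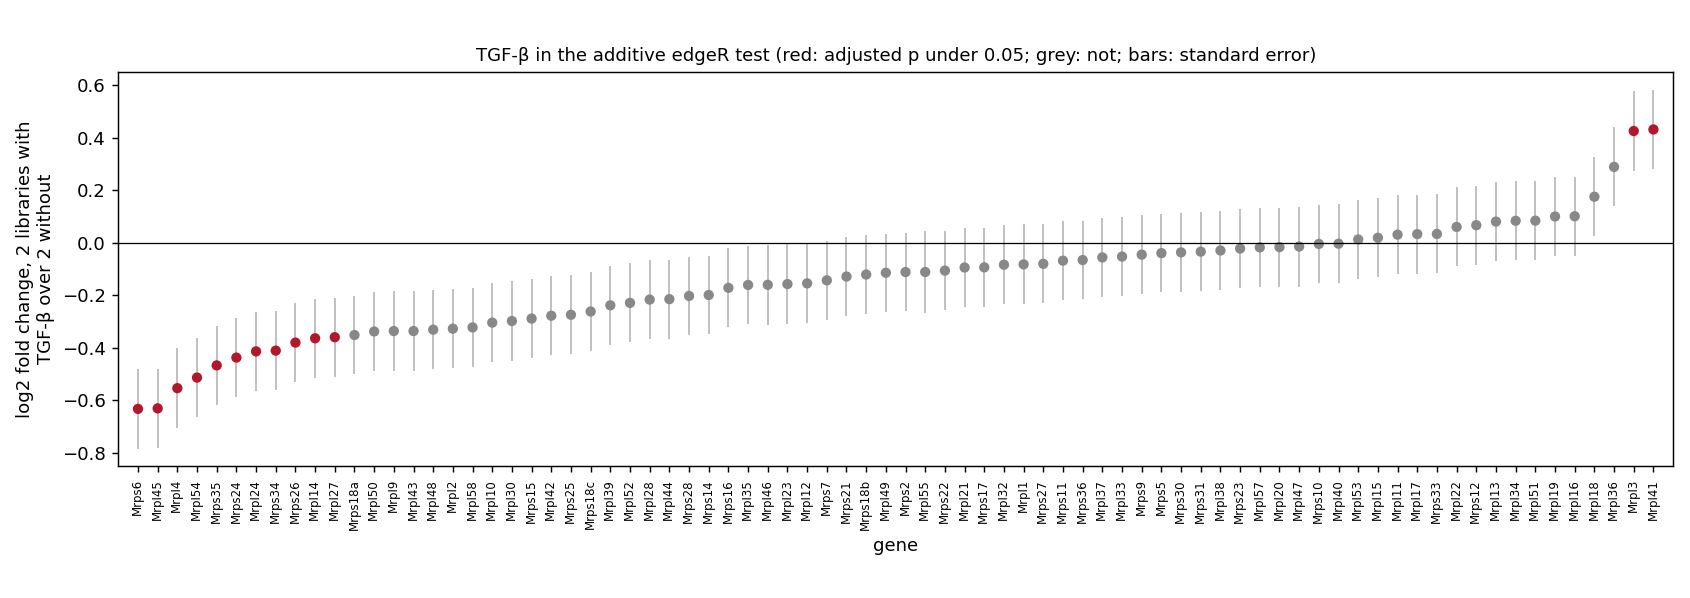
Log2 fold change of the 78 genes in the additive edgeR test, the 2 libraries with TGF-β over the 2 without, ordered from lowest to highest, with the standard error of the fit as bars. Red points are the 11 lower and 2 higher genes at an adjusted p under 0.05, and 62 of 78 points lie below 0.

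Mrps6 (chr16:92058270-92112227, mm10), a small-subunit protein with a bacterial counterpart, was at 19.8 RPKM with TGF-β and 22.2 with costimulation, against 30.02 with TNF-α and 31.9 in the control. Its log2 fold change was −0.63 with an SE of 0.15 and an edgeR adjusted p of 0.00015. Mrpl45 (chr11:97315716-97329920), whose human counterpart holds the ribosome at the inner membrane near the tunnel exit, was at 16.6 and 18.4 RPKM with TGF-β and costimulation, against 24.8 and 26.9 RPKM with TNF-α and in the control. It fell by 0.63 on the log2 scale (SE 0.15, edgeR adjusted p = 0.00017). For both genes the 2 libraries with TGF-β lay below the 2 without it, as in 31.2% of the 9933 genes with RPKM above 2 in any library.

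Mrpl4, whose bacterial counterpart lines the peptide tunnel, was at 26.0 and 30.2 RPKM with TGF-β and costimulation, against 35.5 and 43.3 RPKM with TNF-α and in the control. The log2 fold change was −0.55 (SE 0.15, edgeR adjusted p = 0.0012). Mrpl54, a mitochondria-specific protein, was at 28.4 and 31.8 RPKM with TGF-β and costimulation, against 36.8 and 45.5 RPKM with TNF-α and in the control. It fell by 0.51 (SE 0.15, edgeR adjusted p = 0.0027). In both genes the control library also stood above the TNF-α library.

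Mrps35, a small-subunit protein specific to mitochondria, was at 6.59 and 6.99 RPKM with TGF-β and costimulation, against 8.98 and 8.92 RPKM with TNF-α and in the control (log2 −0.47, SE 0.15, edgeR adjusted p = 0.0068). Mrps24, a small-subunit protein with a bacterial counterpart, was at 44.1 and 49.6 RPKM with TGF-β and costimulation, against 54.8 and 66.5 RPKM with TNF-α and in the control (log2 −0.44, SE 0.15, edgeR adjusted p = 0.0127). Mrps24 shares 226 exon bases on the same strand with Urgcp, which was lower as well (log2 −0.49, edgeR adjusted p = 0.0040), and the part of shared reads was not tested. Mrpl24, whose bacterial counterpart starts the assembly of the large subunit, was at 30.2 and 32.9 RPKM with TGF-β and costimulation, against 38.7 and 41.5 RPKM with TNF-α and in the control (log2 −0.41, SE 0.15, edgeR adjusted p = 0.0192). Mrps34, a small-subunit protein specific to mitochondria, was at 14.3 and 14.4 RPKM with TGF-β and costimulation, against 17.4 and 18.9 RPKM with TNF-α and in the control (log2 −0.41, SE 0.15, edgeR adjusted p = 0.0195). For these 4 genes both libraries with TGF-β lay below both without it, as in 31.2% of the 9933 genes. The genes were picked by calls on the same libraries, so this adds nothing to the calls. Mrps26, specific to mitochondria, Mrpl14 and Mrpl27, whose bacterial counterpart reaches the catalytic centre, completed the lower calls, with edgeR adjusted p-values of 0.0324, 0.0416 and 0.0448.

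The 2 higher genes differed in their pattern. Mrpl3 (chr9:105053239-105079888), whose bacterial counterpart reaches into the catalytic centre, was at 14.2 and 13.7 RPKM with TGF-β and costimulation, against 10.0 and 9.78 RPKM with TNF-α and in the control (log2 0.43, SE 0.15, edgeR adjusted p = 0.0153). Its level was alike within each pair of libraries. Mrpl41 (chr2:24974117-24975098), a mitochondria-specific large-subunit protein, was at 24.4 and 26.8 RPKM with TGF-β and costimulation, against 15.7 RPKM with TNF-α and 20.8 RPKM in the control (log2 0.43, SE 0.15, edgeR adjusted p = 0.0141). The TNF-α library was the lowest here, so that the costimulation library was 1.71 times the TNF-α library (95% counting interval 1.58 to 1.84) and the TGF-β library was 1.17 times the control (1.09 to 1.26).

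**Figure D4:**
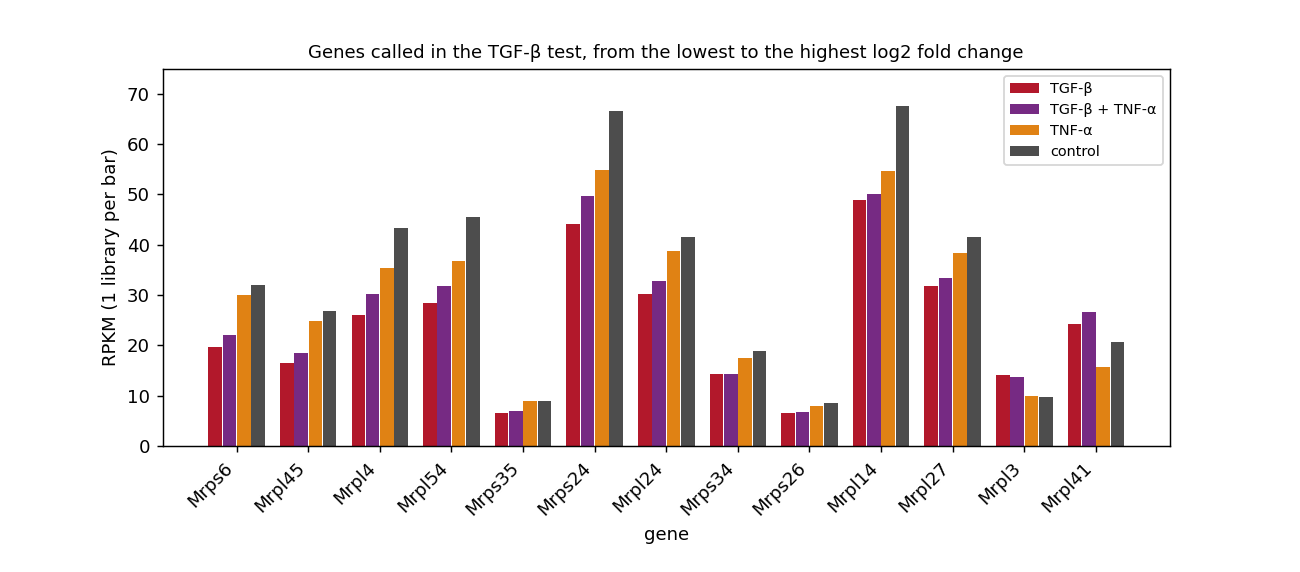
RPKM of the 13 genes called in the TGF-β test, 1 bar per library on an axis from 0, ordered by log2 fold change. The 11 genes on the left are lower in the TGF-β and costimulation libraries than in the TNF-α and control libraries, and Mrpl3 and Mrpl41 on the right are higher.

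The calls depended on single libraries. Without the TGF-β library 0 members were called, without the costimulation library 4 were lower and 0 higher, without the TNF-α library 31 were lower and 1 higher, and without the control 18 were lower and 4 higher, all by edgeR at an adjusted p under 0.05. Over all genes the lower and higher calls numbered 1705 and 1406 of 13924 without the TGF-β library, 1654 and 1458 of 13926 without the costimulation library, 3817 and 3658 of 13963 without the TNF-α library, and 3072 and 2782 of 13965 without the control. Without the TGF-β library Mrps6 was at −0.55 and Mrpl45 at −0.56 on the log2 scale, against −0.63 each with all libraries. Mrpl45, Mrps6, Mrpl4 and Mrpl54 were each called in 12 of the 13 alternative fits, whereas Mrpl14 and Mrpl27 were called in 5 of 13.

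The Mrps18 family has 3 paralogs in mammals, which descend from one bacterial protein. Mrps18a was at 22.3 and 22.6 RPKM with TGF-β and costimulation, against 25.1 and 29.7 RPKM with TNF-α and in the control (log2 −0.35, SE 0.15, edgeR adjusted p = 0.0505). Mrps18b was at 38.7 and 42.4 RPKM with TGF-β and costimulation, against 40.5 and 43.5 RPKM with TNF-α and in the control (log2 −0.12, SE 0.15, edgeR adjusted p = 0.5726). Mrps18c was at 18.9 and 19.1 RPKM with TGF-β and costimulation, against 20.99 and 22.6 RPKM with TNF-α and in the control (log2 −0.26, SE 0.15, edgeR adjusted p = 0.1669). None of the paralogs passed the threshold, and Mrps18b was the most abundant of them in every library.

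TNF-α was tested in the same way, with the TNF-α and costimulation libraries against the TGF-β and control libraries. By edgeR 0 members passed, against 0.422% of all genes (0.289% higher and 0.133% lower), and 0 members had an unadjusted p under 0.05, against 4.2% of all genes. DESeq2 and limma called 0 members as well. The members' log2 fold changes lay between −0.16 and 0.15, with a median of −0.02, and 47 of 78 were below 0, against 50% of all genes. Both libraries with TNF-α lay below both others for 3 members and above both others for 5, against 4.83% of genes in each direction.

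In comparisons of 1 library with another there is no test. With TGF-β over control, 20 members were below 0.8 times the control and 1 was more than 25% above it, against 21.4% and 29.5% of genes with RPKM above 2 in either library. A fold below 1 was found for 59 of 78 members, against 44.5% of genes. Past a fold of 1.5 there were 5 lower members and 0 higher, against 11.9% and 15.1% of genes. These 5 were Mrpl4 at 0.600 times the control (95% counting interval 0.573 to 0.628), Mrpl45 at 0.618 (0.592 to 0.645), Mrps6 at 0.619 (0.578 to 0.663), Mrpl54 at 0.625 (0.584 to 0.669) and Mrps24 at 0.662 (0.634 to 0.691). The intervals cover counting error only. The log2 fold had a Spearman's rho with GC content of −0.332 over the 78 members and −0.328 over 9920 genes. The members' median log2 fold was −0.12, against 0.06 for all genes.

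With costimulation over TNF-α, 4 members were below 0.8 times and 5 were more than 25% above, against 17.5% and 21.6% of genes. A fold below 1 was found for 39 of 78 members, against 43.2% of genes. Past 1.5 there was 1 higher member, Mrpl41, against 9.78% of genes, and 0 lower members, against 10.0%. The median was −0.004 for the members and 0.06 for all genes.

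With TNF-α over control, 4 members were below 0.8 times the control and 0 were more than 25% above it, against 7.84% and 12.1% of genes. Past a fold of 1.5 there were 0 lower and 0 higher members, against 0.771% and 1.86% of genes. The members' median log2 fold was −0.09, and 57 of 78 were below 0, against 49.8% of genes. In this comparison the log2 fold ran with the GC content of the transcripts, with a Spearman's rho of −0.518 over the 78 members and −0.675 over 9922 genes. Once the log2 folds were centred in bins of GC content and transcript length, the members' median was −0.06.

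With costimulation over TGF-β, 0 members were below 0.8 times and 0 were more than 25% above, against 1.06% and 1.63% of genes, and 0 passed 1.5 in either direction, against 0.146% and 0.344% of genes. Only 11 of 78 members had a fold below 1, against 51.4% of genes. The median was 0.09, against 0.00 for all genes. With costimulation over control, 12 members were below 0.8 times the control and 2 were more than 25% above it, against 20.6% and 29.1% of genes, with a median of −0.07. A fold below 1 was found for 48 of 78 members, against 43.4% of genes, and 0 members passed 1.5 in either direction, against 12.1% lower and 15% higher genes.

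A fold of 2, the size the study used for its induced genes, was passed by 0 members in either direction in any of the 5 comparisons. Among genes it was passed upward and downward by 5.73% and 6.05% with TGF-β over control, by 4.65% and 5.21% with costimulation over TNF-α, and by 5.75% and 6.29% with costimulation over control. With TNF-α over control the shares were 0.25% and 0.0833%, and with costimulation over TGF-β they were 0.136% and 0.0417%.

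**Figure D5:**
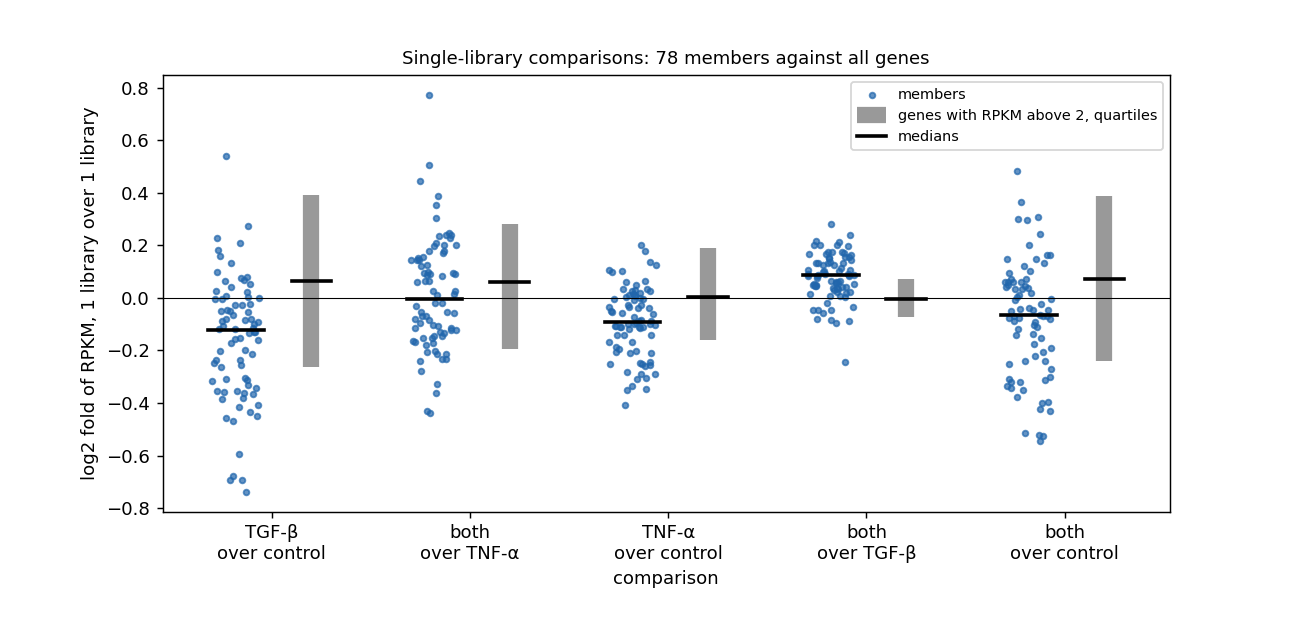
Log2 fold of RPKM between single libraries for the 78 members (blue points, spread sideways at random) beside the quartiles of genes with RPKM above 2 in either library (grey bars), with medians as black lines. The members' median lies below that of all genes with TGF-β over control (−0.12 against 0.06) and above it with costimulation over TGF-β (0.09 against 0.00).

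The log2 effect of TGF-β in TNF-α treated cells minus that in untreated cells, called here the departure from additivity, had a median of 0.17 over the members and was above 0 for 67 of 78. For all genes the median was −0.01 and 48.4% were above 0. With GC content and length corrected, the members' median was 0.09 and 62 of 78 were above 0. All 4 libraries enter each departure, so 1 library that stands apart would move every member, and its part was not tested.

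The departure was largest for Mrpl55, a large-subunit protein that was not assigned to a bacterial counterpart here. It was at 10.5 and 12.4 RPKM with TGF-β and costimulation, against 10.5 and 13.2 RPKM with TNF-α and in the control. Its TGF-β library was 0.795 times the control (0.726 to 0.871), while its costimulation library was 1.19 times the TNF-α library (1.08 to 1.302), which gives a departure of 0.58. Mrpl41 followed with 0.54. Mrps12, whose bacterial counterpart is part of the decoding centre, was at 23.9 and 26.6 RPKM with TGF-β and costimulation, against 20.3 and 25.9 RPKM with TNF-α and in the control, a departure of 0.50. Mrpl4 had a departure of 0.50 as well, with a lower value under TGF-β in both backgrounds. With GC content and length corrected the departures were 0.357 for Mrpl55, 0.327 for Mrpl41, 0.162 for Mrps12 and 0.069 for Mrpl4.

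The mapping sets limits on several members. In the control library 58 members had over 95% of their exon reads mapped to 1 place, and 5 had under 50%. Mrpl53 had 0 unique reads, and all of its 695 exon bases are also annotated as exons of Gm42688 on the same strand. Mrps34 had 15.28% unique reads. It shares 763 exon bases on the same strand with Nme3, which had a log2 fold change of −1.10 with TGF-β (edgeR adjusted p = 6.9e-09). With unique reads alone the log2 fold change of Mrps34 was −0.47 (edgeR adjusted p = 0.0502), against −0.41 with all reads. Mrps6 had 16.27% unique reads and shares 159 exon bases on the same strand with Slc5a3, which was lower with TGF-β (log2 −0.72, edgeR adjusted p = 4.3e-05). The unique reads of Mrps6 numbered 242 with TGF-β and 219 with costimulation, against 334 with TNF-α and 331 in the control, and their log2 fold change was −0.63 (edgeR adjusted p = 0.0104). Mrps25 shares 4590 of 6073 exon bases with Nr2c2 on the opposite strand. The strand of the libraries is not stated, and reads of such overlapping genes cannot be told apart without it. In all, 23 members share exon bases with another protein-coding gene, 20 of them with a gene on the opposite strand.

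Many members face another gene. A protein-coding partner on the opposite strand with its start within 500 bases was found for 25 of 78 members (32.1%), against 15.4% of 9924 protein-coding genes with RPKM above 2. Of the called members 3 had such a partner that was tested, and 2 of these partners were called in the same direction, lower. Of all genes tested 19.9% were called lower, and 3 pairs are too few to read a pattern from. Mrpl54 starts 26 bases from Apba3 (log2 −0.40, edgeR adjusted p = 0.0263) and Mrps34 starts 29 bases from Eme2 (log2 −0.37, edgeR adjusted p = 0.0354). Mrpl27, lower with TGF-β, faces Eme1 (log2 0.17, edgeR adjusted p = 0.4149). Partners could also differ widely: Mrpl2 had a log2 fold change of −0.33 (edgeR adjusted p = 0.0729), whereas its partner Klc4, a kinesin light chain, fell by 1.84 (edgeR adjusted p = 6.9e-31). Mrpl46 and Mrps11 are partners of each other and share 173 exon bases.

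Promoter windows of 250 bases before the RefSeq start were taken on GRCm38.p6 for 69 of the 78 members. The RefSeq start can differ from the gene start given above, and the windows of Mrps6 and Mrpl3 run past that gene start. NRF1 and the ETS factor GABP are known activators of nuclear genes for mitochondrial proteins, and YY1 is a further factor at such promoters. Both strands were searched, and motifs were allowed to overlap. The NRF1 motif, GCGC followed by any base and TGCGC, was in 10 members (14.5%), against 10.5% of protein-coding genes with RPKM above 2 and 6.04% of all protein-coding genes in the table. The ETS motif CCGGAAG was in 18 members (26.1%), against 17.7% and 10.5%. The YY1 motif AAGATGGC was in 4 members (5.8%), against 2.56% and 1.77%. The SP motif GGGCGG was in 47.8% of members, against 67.6% of the genes with RPKM above 2. The E-box CACGTG was in 7.25% of members, against 10.3% of those genes, and CCAAT was in 36.2%, against 40.9%. A match describes the letters only.

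The promoter windows below belong to the lower genes Mrpl45 (chr11:97315466-97315715, plus strand) and Mrps6 (chr16:92058086-92058335, plus strand), the higher genes Mrpl3 (chr9:105053018-105053267, plus strand) and Mrpl41 (chr2:24975099-24975348, minus strand), and Mrps12 (chr7:28741822-28742071, minus strand), which had a large departure from additivity. They are shown to set the motif matches of lower, higher and uncalled genes side by side. Capitals mark the NRF1, ETS or YY1 motif on either strand.
Mrpl45: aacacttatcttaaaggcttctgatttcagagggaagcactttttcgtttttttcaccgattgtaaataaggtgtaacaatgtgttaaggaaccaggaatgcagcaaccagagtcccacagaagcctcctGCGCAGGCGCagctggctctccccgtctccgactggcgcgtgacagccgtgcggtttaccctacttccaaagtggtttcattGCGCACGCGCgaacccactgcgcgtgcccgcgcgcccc
Mrps6: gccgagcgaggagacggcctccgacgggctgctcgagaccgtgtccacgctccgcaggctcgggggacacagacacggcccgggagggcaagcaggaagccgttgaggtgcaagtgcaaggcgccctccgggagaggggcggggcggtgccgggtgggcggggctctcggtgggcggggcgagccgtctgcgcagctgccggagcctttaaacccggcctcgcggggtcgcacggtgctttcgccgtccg
Mrpl3: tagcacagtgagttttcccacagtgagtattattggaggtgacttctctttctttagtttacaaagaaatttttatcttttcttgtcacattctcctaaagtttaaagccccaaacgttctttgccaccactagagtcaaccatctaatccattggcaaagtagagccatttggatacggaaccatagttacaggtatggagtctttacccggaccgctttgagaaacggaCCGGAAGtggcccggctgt
Mrpl41: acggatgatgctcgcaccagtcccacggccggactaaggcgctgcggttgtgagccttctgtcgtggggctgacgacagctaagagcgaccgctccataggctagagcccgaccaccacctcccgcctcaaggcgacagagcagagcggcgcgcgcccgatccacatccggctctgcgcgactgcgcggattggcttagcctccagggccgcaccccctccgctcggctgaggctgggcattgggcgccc
Mrps12: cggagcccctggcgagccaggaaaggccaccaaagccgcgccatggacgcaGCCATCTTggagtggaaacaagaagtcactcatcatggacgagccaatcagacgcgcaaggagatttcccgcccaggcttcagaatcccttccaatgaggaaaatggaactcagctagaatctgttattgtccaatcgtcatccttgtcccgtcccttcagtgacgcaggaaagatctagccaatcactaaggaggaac

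Mrpl45 holds 2 NRF1 motifs, while Mrps6, which fell by as much, holds none of the 3. Mrpl3 has 1 ETS motif close to its RefSeq start and past the gene start given above. Mrpl41 has none of the 3, and Mrps12 has 1 YY1 motif on the opposite strand. Of the 7 lower members with a window, 1 had an NRF1 motif and 2 an ETS motif.

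Of 12 regulators known to act on such promoters 2 were higher and 3 lower with TGF-β, shares near the 18.6% and 19.9% of all genes tested. Pprc1, a coactivator of the PGC-1 family, was at 24.8 and 22.6 RPKM with TGF-β and costimulation, against 16.3 and 13.02 RPKM with TNF-α and in the control (log2 0.63, SE 0.15, edgeR adjusted p = 9.3e-05). Ppargc1b, of the same family, had 42 and 68 reads with TGF-β and costimulation, against 184 and 221 reads with TNF-α and in the control (log2 −2.0, SE 0.32, edgeR adjusted p = 6.0e-09). Ppargc1a had 207 and 159 reads with TGF-β and costimulation, against 105 and 87 reads with TNF-α and in the control (log2 0.82, SE 0.30, edgeR adjusted p = 0.0202). Both of these genes were under 1 RPKM in all 4 libraries. Gabpb2, a beta subunit of GABP, had a log2 fold change of −0.54 (edgeR adjusted p = 0.0015). Nrf1 (log2 0.10, edgeR adjusted p = 0.6313), Gabpa (0.06, edgeR adjusted p = 0.8073), Esrra (−0.30, edgeR adjusted p = 0.0965) and Myc (0.28, edgeR adjusted p = 0.0846) did not pass.

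Among 5 further subunits of the mitochondrial ribosome whose symbols are not Mrpl or Mrps, 2 were lower and 0 higher with TGF-β. Of all genes tested, 19.9% were lower and 18.6% higher. Dap3, a GTP-binding protein of the small subunit, was at 7.55 and 7.26 RPKM with TGF-β and costimulation, against 10.1 and 10.3 RPKM with TNF-α and in the control (log2 −0.53, SE 0.15, edgeR adjusted p = 0.0019). Gadd45gip1, a large-subunit protein, was at 12.1 and 12.9 RPKM with TGF-β and costimulation, against 15.01 and 16.3 RPKM with TNF-α and in the control (log2 −0.40, SE 0.15, edgeR adjusted p = 0.0249).

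Of 30 assembly factors 7 were lower and 1 higher, with a median of −0.19, against 19.9% lower and 18.6% higher among all genes. Lonp1, the matrix protease, was at 47.6 and 50.7 RPKM with TGF-β and costimulation, against 83.3 and 85.9 RPKM with TNF-α and in the control (log2 −0.85, SE 0.13, edgeR adjusted p = 1.0e-09). Ddx28, an RNA helicase of large-subunit assembly, was at 8.85 and 8.73 RPKM with TGF-β and costimulation, against 13.5 and 14.0 RPKM with TNF-α and in the control (log2 −0.71, SE 0.15, edgeR adjusted p = 1.4e-05). Mettl15, which methylates the small-subunit RNA, was the higher gene (log2 0.73, SE 0.23, edgeR adjusted p = 0.0057), at 2.05 and 2.34 RPKM with TGF-β and costimulation, against 1.33 and 1.19 RPKM with TNF-α and in the control.

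Of 15 translation factors 1 was lower, Mtif3, an initiation factor (log2 −0.51, SE 0.15, edgeR adjusted p = 0.0041). Of 20 mitochondrial tRNA synthetases 3 were higher and 1 was lower, against 18.6% and 19.9% of all genes. Vars2, for valine, was at 15.5 and 13.7 RPKM with TGF-β and costimulation, against 22.8 and 26.6 RPKM with TNF-α and in the control (log2 −0.82, SE 0.15, edgeR adjusted p = 2.5e-07). Aars2, for alanine, had a log2 fold change of 0.50 (SE 0.15, edgeR adjusted p = 0.0035). Among 11 genes of mitochondrial transcription and DNA replication, 1 was lower, Polg2, under 1 RPKM in each library (edgeR adjusted p = 0.0498). Of 13 mRNAs encoded by mitochondrial DNA, the templates of these ribosomes, 4 were lower and 0 higher, with a median of −0.24. Of 79 cytosolic ribosomal protein genes tested, 51 were lower and 0 higher, with a median of −0.32. The shares to set beside each TGF-β count here are 19.9% lower and 18.6% higher over all genes tested. TNF-α gave 0 edgeR calls in each of these 8 lists, as it did among the members, against 0.422% of all genes.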

How the data were processed

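CMT64 RNA was enriched with oligo(dT) beads, primed with random hexamers and sequenced on an Illumina HiSeq. The authors mapped reads to mm10 with CLC Genomics Workbench and allowed up to 30 hits per read. The tables deposited by the authors give, per gene, exon, unique, intron and total gene read counts and RPKM values, the read number scaled to exon length and to mapped reads. Other columns were not used.

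Counts were fitted with edgeR 4.0.16 (R 4.3.3): TMM scaling, filterByExpr, robust quasi-likelihood, terms for TGF-β and TNF-α, with p-values adjusted by Benjamini-Hochberg over 13509 genes. RPKM of single libraries were compared as folds with 95% Clopper-Pearson counting intervals. Alternatives were DESeq2 1.42.0, limma 3.58.1 on log2(RPKM + 0.1) or log2(RPKM + 1), other scalings and filters, unique reads, GC and length correction, a single term and a fold of 1.5. Each library was also left out in turn, with a single term in the fit. On simulated counts for 13326 genes, the TGF-β test recovered 100 of 100 genes changed 2-fold and 18 of 100 changed 1.3-fold, with 6 false calls. The simulated counts took their spread from the fit and held no TNF-α effect, departure from additivity or GC shift. The false calls therefore do not carry over to these data. GC content, length and overlaps came from GENCODE M21, which held all 78 members.

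Members, lists and tests were chosen with earlier results of these data known. Named with values were the 6 highest and 5 lowest RPKM means, up to 8 called genes per direction, members past a fold of 1.5, the 4 largest departures from additivity and the Mrps18 family, and, in each further list, up to 4 called genes and 7 named regulators.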

Additional observations from a re-analysis of the deposited data

Results flagged for a closer look

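For 12 members the TGF-β fold had counting intervals on opposite sides of 1 in the 2 backgrounds, TNF-α treated and untreated. This difference was not tested, since each fold rests on 1 library over 1 library. The same count was not made over all genes, so it is not read as particular to the members. Mrpl47 was the one member with a higher TGF-β value in untreated cells and a lower one in TNF-α treated cells. The TGF-β library was 1.21 times the control (1.12 to 1.31) and the costimulation library 0.890 times the TNF-α library (0.819 to 0.967), a departure from additivity of −0.44 on the log2 scale. The departure of Mrpl47 was −0.29 with unique reads and −0.13 with GC content and length corrected.

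The other 11 members were lower with TGF-β in untreated cells and higher in TNF-α treated cells. Their departures on the log2 scale were 0.575 for Mrpl55, 0.505 for Mrps12, 0.407 for Mrps21, 0.357 for Mrpl57, 0.342 for Mrpl38, 0.319 for Mrps7, 0.311 for Mrps11, 0.299 for Mrpl12, 0.264 for Mrpl37, 0.251 for Mrpl21 and 0.207 for Mrps27. With GC content and length corrected they lay between −0.034 for Mrpl38 and 0.683 for Mrpl57, and were 0.357 for Mrpl55, 0.331 for Mrps21, 0.189 for Mrps27, 0.162 for Mrps12, 0.15 for Mrps7, 0.094 for Mrpl21, 0.077 for Mrps11, 0.074 for Mrpl12 and 0.039 for Mrpl37.

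Intron reads were not part of the comparisons. They made up 11.25% of the reads of the member genes with TGF-β, 10.57% with costimulation and 10.09% with TNF-α, against 8.42% in the control. The same share over all genes was 8.5%, 8.17% and 8.16% in the treated libraries, against 6.72% in the control. These shares pool reads over genes. Gene by gene, the members' median share was 9.18% with TGF-β, 8.11% with costimulation, 8.49% with TNF-α and 7.21% in the control. For the 9933 genes the medians were 9.27%, 8.91%, 8.72% and 7.25%. The intron share was above that of the control in 71 of 78 members with TGF-β, 65 with costimulation and 62 with TNF-α, against 81.7%, 77.9% and 81.4% of 9933 genes.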

How the results depend on the processing

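No paired analysis was possible because each condition had 1 library and the labels carry no shared replicate numbers. No called member and no median of a single-library comparison changed sign under the alternatives run. The members' TNF-α median, with 0 calls, was −0.02 in the main test. Fits that left out 1 library had no TGF-β term, so their TNF-α values also take in differences due to TGF-β. Their medians were 0.11 without the control, 0.01 without costimulation, −0.04 without TNF-α and −0.11 without TGF-β. In the TGF-β test the number of higher members was 6 with GC and length offsets, 1 with DESeq2 and 1 with a single term. Over all genes these settings called 2886 of 13503, 1888 of 13509 and 2239 of 13509 higher, against 2507 of 13509 in the main test. The number of lower members was 6 with mapped reads as library size and 6 with limma on log2(RPKM + 1). Over all genes these 2 settings called 2303 and 2131 of 13509 lower, against 2684 in the main test. With GC and length offsets 15 members were lower, of which 8 were among the 11, beside 3003 of 13503 genes. Leaving out 1 library gave 0 to 4 higher and 0 to 31 lower members.

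Past a fold of 1.5, TGF-β over control had 0 higher and 5 lower members, costimulation over TNF-α 1 and 0, TNF-α over control 0 lower, and costimulation over control 0 and 0. At limits of 25% above and 0.8 times, GC and length bins gave 3 higher members with TGF-β over control and 4 with costimulation over control. At the same limits TMM scaling gave 1 higher and 19 lower members with costimulation over control, and with DESeq2 size factors its median was −0.15. In the further lists, GC and length offsets gave 4 higher assembly factors, 2 lower translation factors, 1 higher gene of mitochondrial transcription and DNA, 8 lower mitochondrial mRNAs and 32 lower cytosolic ribosomal proteins, and DESeq2 size factors gave 0 lower genes of mitochondrial transcription and DNA. Over all genes, GC and length offsets called 2886 of 13503 higher and 3003 lower, and DESeq2 size factors called 2660 of 13509 lower. The cause of the shifts between settings was not tested. For single genes 47 calls were lost over the alternatives run, some of them in fits that left out 1 library together with the TNF-α term. Without the TGF-β library the log2 fold changes were −0.41 for Mrps34, 0.39 for Mrpl3 and 0.48 for Mrpl41, against −0.41, 0.43 and 0.43 with all libraries.

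The depth of 836 reads or more per member makes the counting error small. The limit is the single library per condition, since the spread between cultures was not measured.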
